A study of Mus musculus with 12 samples.

Results

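The genes described here are 9 Toll-like receptors and Cd14, followed across adult and aged mice with and without a burn. They were taken by name from the joined count tables: Tlr1, Tlr2, Tlr4 and Tlr6, whose products sit at the cell surface, Tlr3, Tlr7, Tlr8, Tlr9 and Tlr13, whose products work in endosomes, and the co-receptor gene Cd14. All 10 names were found among the 27179 genes of the tables, and all 10 passed the filter on low counts in each of 5 comparisons. The rule names them outright and uses no measured value, though the list was drawn up with earlier results of these data known.

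Adipose tissue of wild-type (WT) C57BL/6J mice was profiled by sequencing of polyadenylated RNA at day 7, with 3 libraries in each of 4 groups: untreated adult mice (Adult control), burned adult mice (Adult burn), untreated aged mice (Aged control) and burned aged mice (Aged burn). Burns were scalds from a bath at 98 °C. The back was exposed for 10 s in both ages, which burned 20% of the body surface; in adult mice 2 s of ventral exposure burned 10% more, and the total was 30%. Buprenorphine, an opioid given for pain, was used at 0.01 to 0.5 mg/kg, and the labels do not say whether untreated mice received it. The sources used here give neither the fat depot nor the sex, nor the ages in weeks. Adult and aged libraries stand in separate tables, so age, table and, among burned mice, burn size cannot be told apart. Whether each numbered library is a separate mouse is not stated in the labels; the p-values therefore reflect differences among libraries of a group, which may be technical.

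Total counts ran from 25231506 to 32236330 in adult and from 31846557 to 46531070 in aged libraries. Adipocyte markers (Adipoq, Plin1, Cidec, Fabp4 and Lep) were high in all 12 libraries, at a summed 6840 to 31000 CPM (a gene's reads scaled for library size over the 12 libraries). Several libraries stood apart from the rest of their group. Adult control 1 held B cell markers at a summed 937 CPM, against 1.94 to 16.7 CPM in the other 11 libraries. Adult burn 1 held skeletal muscle markers at 1870 CPM. Aged burn 2 had the highest macrophage and neutrophil markers of all libraries (4950 and 1810 CPM) and the lowest adipocyte markers (6840 CPM).

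Toll-like receptors are germline-encoded sensors of microbial and damage-derived molecules. Tlr2 pairs with Tlr1 or Tlr6 to bind lipoproteins, Tlr4 binds lipopolysaccharide with help from Cd14, and the endosomal receptors bind nucleic acids: Tlr3 double-stranded RNA, Tlr7, Tlr8 and Tlr13 single-stranded RNA, and Tlr9 unmethylated DNA. Most signal through the adaptor Myd88 to NF-kB and interferon regulatory factors, Tlr3 signals through Ticam1, and in fat the receptors are found on resident and recruited macrophages as well as, for some of them, on adipocytes.

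Promoter sequence was available in RefSeq (GRCm38.p6) for 7 of the 10 genes, in 9 windows of 250 bases before and 50 bases after a start site. Tlr4, Tlr7 and Cd14 have no window there. The 250 bases before the start site are shown for Tlr13, Tlr8 and Tlr1, which had the highest fold changes after burn in aged mice, and for Tlr3, whose level did not pass the test. They run 5′ to 3′ on the gene's own strand, and capitals mark matches to the motifs searched.
Tlr13 (chrX:106143025-106143274, plus strand): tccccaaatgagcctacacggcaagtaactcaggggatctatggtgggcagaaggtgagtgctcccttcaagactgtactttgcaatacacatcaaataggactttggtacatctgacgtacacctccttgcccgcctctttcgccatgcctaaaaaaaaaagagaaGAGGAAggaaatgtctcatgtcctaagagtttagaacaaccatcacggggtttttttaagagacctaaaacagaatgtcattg
Tlr8 (chrX:167264330-167264579, minus strand): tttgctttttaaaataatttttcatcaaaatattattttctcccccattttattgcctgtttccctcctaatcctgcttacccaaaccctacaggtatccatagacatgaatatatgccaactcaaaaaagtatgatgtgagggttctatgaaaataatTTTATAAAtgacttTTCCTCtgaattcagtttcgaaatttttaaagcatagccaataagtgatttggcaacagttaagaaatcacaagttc
Tlr1 (chr5:64933559-64933808, minus strand): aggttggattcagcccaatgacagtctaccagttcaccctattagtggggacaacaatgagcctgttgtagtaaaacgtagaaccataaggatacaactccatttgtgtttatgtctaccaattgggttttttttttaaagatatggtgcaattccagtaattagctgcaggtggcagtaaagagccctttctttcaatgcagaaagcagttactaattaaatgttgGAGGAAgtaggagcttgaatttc
Tlr3 (chr8:45410381-45410630, minus strand): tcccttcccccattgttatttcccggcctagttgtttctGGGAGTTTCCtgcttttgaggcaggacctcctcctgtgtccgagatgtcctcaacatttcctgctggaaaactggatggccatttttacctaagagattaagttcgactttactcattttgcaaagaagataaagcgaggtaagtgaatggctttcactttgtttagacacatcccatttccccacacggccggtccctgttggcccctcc
Motifs were searched on both strands of the whole windows. GAGGAA, the core of PU.1-type sites of the myeloid lineage, was found in the windows of 4 of the 7 genes (Tlr1, Tlr8, Tlr9 and Tlr13), which is 4 of their 9 windows, and in 28.3% of all 32851 windows. A second window of Tlr1 had no match. In Tlr13 it began 83 bases before the start site, in Tlr1 23 bases before it, and in Tlr8 it lay on the other strand, so that it reads TTCCTC above. The NF-kB-type motif (GGGA, any base, TTTCC) was found in Tlr3 among these 7 genes and in 0.411% of all windows. TATAAA was found in Tlr8, as matches on both strands that overlap each other, and in Tlr6, and in 13.6% of all windows. The interferon-type motif (GAAA, any 2 bases, GAAA) was found in Tlr6 (as overlapping matches) and in 3.44% of all windows, and TGANTCA, of AP-1 type, in Tlr9 and in 7.81%. A match is a description of the letters and not of a bound site, and GAGGAA is too common for its presence in 4 genes to set them apart.

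Burn in aged mice came with higher transcript levels of 8 of the 9 receptors, at the surface and in endosomes alike, while Tlr3 and Cd14 did not pass the test (edgeR quasi-likelihood F test, Benjamini-Hochberg adjustment over all genes, threshold 0.05). The background was high: 16.7% of the 15132 genes tested passed in either direction, 13.7% upward and 3.03% downward. The median log2 fold change was 3.32 over the 4 surface receptors, 2.93 over the 5 endosomal receptors and -0.01 over all genes tested. In this bulk tissue, more cells of a type and more RNA per cell cannot be told apart, nor can fewer cells and less RNA. The plot of levels by library shows the 12 values of each gene.

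**Figure D1:**
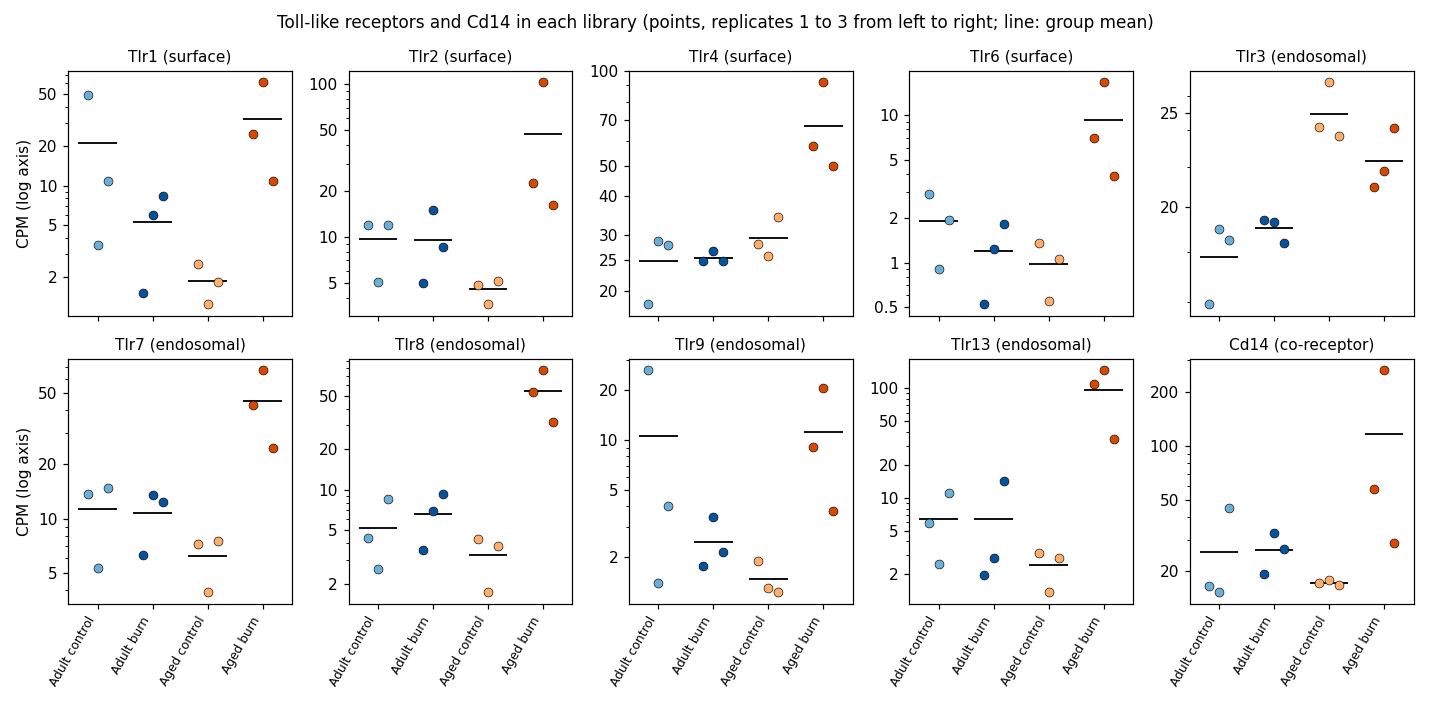
Level of each gene in each library in CPM, on a log axis that differs between panels; points are libraries 1 to 3 of a group from left to right and lines are group means. In the Aged burn libraries 9 of the 10 genes lie above all Aged control libraries, while Tlr3 overlaps between them.

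Among the surface receptors, Tlr1, a partner of Tlr2 for triacylated lipoproteins, stood at 2.53, 1.24 and 1.85 CPM in the Aged control libraries and at 24.6, 61.6 and 10.9 CPM in the Aged burn libraries. The groups did not overlap, and Aged burn 2 was the highest. The log2 fold change was 4.12 ± 0.70 (SE), or 17.3-fold (edgeR adjusted p = 0.0142). Tlr6, the partner of Tlr2 for diacylated lipoproteins, was the scarcest member, at 1.35, 0.546 and 1.05 CPM in Aged control and 7.04, 16.8 and 3.88 CPM in Aged burn libraries. It rose 9.45-fold (log2 fold change 3.24 ± 0.64, edgeR adjusted p = 0.0228) without overlap. Tlr1 and Tlr6 are neighbours on chromosome 5 (64924680 to 64933600 and 64953092 to 64970942, GRCm38.p6) with partly identical coding sequence: 15.4% of the 50-base stretches of Tlr1 transcripts and 12.3% of those of Tlr6 occur in another gene's transcripts, mostly the other's. The sources used here do not say how reads from these stretches were assigned, which makes the split between the pair uncertain.

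Tlr2 (chromosome 3, 83836272 to 83841824) was at 4.86, 3.60 and 5.11 CPM in Aged control and 22.4, 104 and 16.2 CPM in Aged burn libraries. The burned libraries were all higher, with Aged burn 2 far above the other two. The log2 fold change was 3.40 ± 0.76, or 10.6-fold (edgeR adjusted p = 0.0315), and 2.10 without Aged burn 2 (adjusted p = 0.00204). Tlr4 (chromosome 4, 66827551 to 66846581), the lipopolysaccharide receptor, had the highest level per length of the surface receptors in Aged control libraries and the smallest rise of the 8 that passed. It was at 28.2, 25.8 and 34.3 CPM in Aged control and 57.7, 92.4 and 50 CPM in Aged burn libraries, again without overlap. The rise was 2.27-fold (log2 fold change 1.18 ± 0.26, edgeR adjusted p = 0.0290), and 0.88 on the log2 scale without Aged burn 2.

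Among the endosomal receptors, Tlr13, which recognises bacterial ribosomal RNA, rose most of the 10 genes. It was read at 3.17, 1.37 and 2.84 CPM (130 reads at most) in Aged control and at 111, 148 and 34.2 CPM (1224 to 5684 reads) in Aged burn libraries. The lowest burned library was thus above the highest control. The log2 fold change was 5.32 ± 0.66, or 39.9-fold (edgeR adjusted p = 0.00691), with a 95% interval that the plot of burn responses shows. Tlr8 was at 4.32, 1.72 and 3.80 CPM in Aged control and 52.9, 77.6 and 31.9 CPM in Aged burn libraries. It rose 16.6-fold without overlap (log2 fold change 4.05 ± 0.48, edgeR adjusted p = 0.00635), the smallest adjusted p among the members. Tlr7, which lies beside Tlr8 on the X chromosome (167303380 to 167330574 and 167241123 to 167264329), went from 7.19, 3.88 and 7.46 CPM to 43.0, 67.3 and 24.6 CPM. The groups did not overlap, and the rise was 7.29-fold (log2 fold change 2.87 ± 0.44, edgeR adjusted p = 0.0109). Tlr13 also lies on the X chromosome (106143275 to 106160493). Y-linked transcripts were present in every library and Xist had at most 6 reads in any.

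Tlr9 (chromosome 9, 106222598 to 106226876), the DNA sensor, was at 1.87, 1.29 and 1.22 CPM in Aged control and 9.09, 20.5 and 3.77 CPM in Aged burn libraries. It rose 7.65-fold without overlap (log2 fold change 2.93 ± 0.63, edgeR adjusted p = 0.0282). Tlr3 (chromosome 8, 45395665 to 45411075) was the exception. It stood at 24.2, 26.9 and 23.7 CPM in Aged control and 21.0, 21.8 and 24.1 CPM in Aged burn libraries, so the groups overlapped. Its log2 fold change was -0.16 ± 0.12 (edgeR adjusted p = 0.341), the 95% interval running from -0.45 to 0.13. The exons of Tlr3 overlap those of the antisense gene Gm45542, and the sources used here do not give the strand setting of the counting.

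Cd14 (chromosome 18, 36725064 to 36726815), which hands lipopolysaccharide to the Tlr4 complex, was even in the Aged control libraries at 17.1, 17.8 and 16.8 CPM and uneven in the Aged burn libraries at 57.1, 266 and 28.7 CPM. The groups did not overlap, but the spread of the burned libraries was wide and the difference did not pass the test (log2 fold change 2.77 ± 0.81, edgeR adjusted p = 0.0615, unadjusted p = 0.0121). Without Aged burn 2 the log2 fold change was 1.32 and passed (adjusted p = 0.0139), and without Aged burn 3 it was 3.23 and passed (adjusted p = 0.0145). In all, 9 of the 10 genes were higher in every Aged burn than in every Aged control library, against 26.3% of all genes tested that were higher and 24.3% that were lower in this way. The count of 8 genes that passed depended on the libraries in the fit. It was 2 without Aged control 1 (575 of all 15442 genes passed) and 2 without Aged control 2 (410 of 15463). It was 0 without Aged control 3 and 4 without Aged burn 1 (872 of 15367). It was 9 without Aged burn 2 (3265 of 15325) and 9 without Aged burn 3 (5743 of 15401). Without Aged control 3 no gene of the whole table passed by edgeR. Aged burn 2 was the highest of the burned aged libraries for all genes but Tlr3, and without it the log2 fold changes were 3.25 for Tlr1, 2.49 for Tlr6, 2.46 for Tlr7, 3.70 for Tlr8, 2.15 for Tlr9 and 4.90 for Tlr13. With limma-voom 6 passed, and Tlr2 (adjusted p = 0.0804) and Tlr9 (0.0663) did not. In each of these fits 9 members had an unadjusted p under 0.05, and the same 9 had a positive fold change.

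Burn in adult mice came with no detectable change in any of the 10 genes. None passed by edgeR or by limma-voom, and none had an unadjusted p under 0.05 by edgeR; DESeq2 also called none after adjustment and had 2 at an unadjusted p under 0.05. Of all 14600 genes tested, 0.0411% passed. All 10 genes overlapped between Adult control and Adult burn libraries, while of all genes 6.78% were higher and 3.4% lower after burn without overlap. The median log2 fold change was -0.37 over the surface receptors, -0.03 over the endosomal receptors and -0.04 over all genes tested.

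The precision differed widely between genes. Tlr3 was at 15.9, 19.0 and 18.5 CPM in Adult control and 19.4, 19.3 and 18.4 CPM in Adult burn libraries, and its log2 fold change of 0.09 had a 95% interval from -0.27 to 0.45. Tlr4 was at 18.1, 28.8 and 27.9 CPM and at 24.9, 26.7 and 24.8 CPM, with a log2 fold change of 0.03 (interval -0.46 to 0.52). The rise of 1.18 measured for Tlr4 in aged mice (interval 0.57 to 1.8) lies outside that interval. The edgeR test of the difference itself, given below, did not pass for Tlr4 (adjusted p = 0.0527). Tlr2 itself was at 11.9, 5.06 and 11.9 CPM and at 5, 14.9 and 8.59 CPM, with an interval from -1.20 to 1.15. Tlr7 had an interval from -1.19 to 1.02, Tlr8 from -0.91 to 1.6 and Cd14 from -1.06 to 1.12. Tlr13, at 5.84, 2.48 and 11 CPM in Adult control and 1.96, 2.81 and 14.3 CPM in Adult burn libraries, spread most after burn, and its interval ran from -2.09 to 2.02. Even that upper bound is below the log2 fold change of 5.32 measured for Tlr13 in aged mice.

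Tlr1 and Tlr9 had the lowest values of the adult comparison, and both rested on a single library. Tlr1 was at 49.2, 3.55 and 10.9 CPM in Adult control and 1.52, 5.95 and 8.34 CPM in Adult burn libraries. Tlr9 was at 26.3, 1.39 and 4.02 CPM in Adult control and 1.76, 3.44 and 2.13 CPM in Adult burn libraries. In both genes Adult control 1, the library with the B cell markers, was the highest of the 6. The log2 fold change of Tlr1 was -2.03 ± 1.03 (edgeR adjusted p = 0.788) and -0.47 without that library; that of Tlr9 was -2.13 ± 1.03 (adjusted p = 0.788) and -0.16 without it. T cell markers (358 CPM against at most 13.9 CPM elsewhere) were also highest in Adult control 1. So were plasmacytoid dendritic cell markers (39.2 CPM against at most 14.5 CPM) and conventional dendritic cell markers (54.2 CPM against at most 16.6 CPM). Adipocyte markers were lowest there among the adult libraries (10100 CPM against 25000 to 27600 CPM). The part of cell composition in the levels of Tlr1 and Tlr9 was not tested. Tlr6, the remaining surface receptor, was at 13 to 114 reads in the adult libraries, with a log2 fold change of -0.71 ± 0.60.

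**Figure D2:**
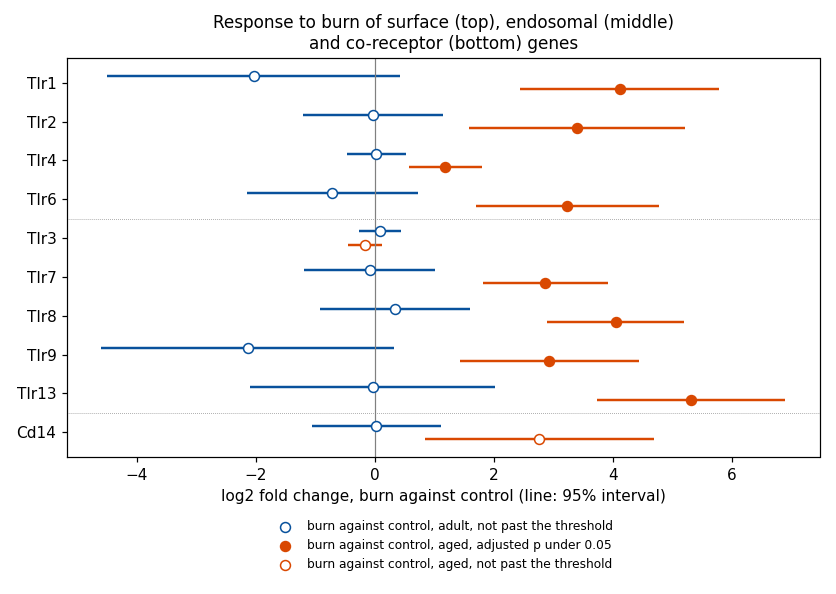
Log2 fold change of burn against control for each gene in adult and in aged mice, with lines for 95% intervals and filled points for an adjusted p under 0.05. The 8 filled points belong to aged mice, and the 10 adult intervals all include 0.

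Whether burn acted differently at the 2 ages was tested as the log2 response of aged mice minus that of adult mice, in a model over all 12 libraries. It passed for 7 of the 10 genes, each with the larger response in aged mice: 3 surface receptors (Tlr1, Tlr2 and Tlr6) and 4 endosomal receptors (Tlr7, Tlr8, Tlr9 and Tlr13). Of all 15553 genes tested, 11.9% passed, 9.64% with the response higher in aged mice and 2.22% with it lower. The median difference was 3.67 on the log2 scale over surface receptors, 3.69 over endosomal receptors and 0.05 over all genes. Tlr13 differed by 5.34 ± 1.18 (edgeR adjusted p = 0.0233) and Tlr8 by 3.69 ± 0.75 (adjusted p = 0.0198). Tlr2 differed by 3.42 ± 0.95 (adjusted p = 0.0437), Tlr6 by 3.93 ± 0.93 (adjusted p = 0.0281) and Tlr7 by 2.94 ± 0.68 (adjusted p = 0.0267).

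Tlr1 had the highest difference, 6.13 ± 1.38 (edgeR adjusted p = 0.0245). Without Adult control 1, where Tlr1 was high, it was 4.57 (adjusted p = 0.0377). Tlr9 differed by 5.05 ± 1.33 (adjusted p = 0.0379), and without Adult control 1 by 3.08, which did not pass (adjusted p = 0.0617). In that fit Tlr2 (adjusted p = 0.0788) and Tlr6 (0.0519) did not pass either, while Tlr4 did (1.34, adjusted p = 0.0332). Without Aged burn 2 only Tlr8 (3.34) and Tlr13 (4.91) passed, and the difference was 2.11 for Tlr2 and 1.28 for Cd14. With limma-voom the same 2 genes, Tlr8 (adjusted p = 0.0348) and Tlr13 (0.0404), passed, and the adjusted p of the other 5 was between 0.053 (Tlr7) and 0.117 (Tlr9). Tlr4 just missed the threshold (1.15 ± 0.34, adjusted p = 0.0527). Cd14 (2.73 ± 0.98, adjusted p = 0.0854) and Tlr3 (-0.26 ± 0.17, adjusted p = 0.302) did not pass. The count of 7 was 0 without Adult burn 1, Adult burn 2, Aged control 2 or Aged control 3. In each of these fits no gene of the whole table passed. The count was 1 without Aged control 1 (354 of all 15922 genes), 2 without Aged burn 2 (811 of 15782) and 3 without Aged burn 1 (719 of 15853). With both Adult control 1 and Adult burn 1 left out the count was 0, again with no gene of the table passing. In that fit 9 members and 3450 of all 15703 genes had an unadjusted p under 0.05.

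Between untreated aged and untreated adult mice no member passed by edgeR, and 0.424% of all genes did (0.238% higher and 0.186% lower in aged mice). The fitted log2 fold change was negative for 8 of the 10 genes, with a median of -0.92 over the members and -0.06 over all genes. Only Tlr1, Tlr3 and Tlr9 had an unadjusted p under 0.05 by edgeR. Tlr1 had a log2 fold change of -3.51 ± 1 (adjusted p = 0.0860), and all Aged control libraries were below all Adult control libraries. Tlr9 had -2.86 ± 0.95 (adjusted p = 0.103). Without Adult control 1 these values were -1.96 and -0.90. Tlr3 was higher in every Aged control (23.7 to 26.9 CPM) than in every Adult control library (15.9 to 19.0 CPM), with a log2 fold change of 0.49 ± 0.12 (adjusted p = 0.0829). DESeq2 called these 3 genes, in a fit where 2184 of all 15553 genes passed, and limma-voom called none. Leaving out Adult control 2 also brought all 3 past the threshold in edgeR (adjusted p = 0.0269 for Tlr1, 0.038 for Tlr3 and 0.0298 for Tlr9). In that fit 2011 of all 15951 genes passed. Across all genes, 17.4% were higher and 15.5% lower without overlap, against 1 member each.

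Between burned aged and burned adult mice, 7 of the 10 genes were higher in aged mice (edgeR), where 26.3% of all genes passed in either direction and 15.2% upward. They were Tlr2 (2.33 ± 0.68), Tlr4 (1.39 ± 0.25), Tlr6 (2.95 ± 0.68), Tlr7 (2.07 ± 0.49), Tlr8 (3.04 ± 0.55), Tlr13 (3.95 ± 0.87) and Cd14 (2.16 ± 0.71), as log2 fold changes with SE. Tlr1 (2.62, adjusted p = 0.0651), Tlr9 (2.19, adjusted p = 0.104) and Tlr3 (0.23, adjusted p = 0.19) did not pass. In 9 of the 10 genes the burned groups did not overlap, against 26.7% of all genes that were higher and 21.1% that were lower in aged mice; Cd14 was the exception, since Aged burn 3 (28.7 CPM) was below Adult burn 2 (32.7 CPM). Without Aged burn 2 the values of Cd14 (0.71, adjusted p = 0.306) and Tlr2 (1.03, adjusted p = 0.150) no longer passed. The count was 4 without Adult burn 1, where 1840 of all 15913 genes passed and Tlr7 (adjusted p = 0.0556), Tlr2 (0.107) and Cd14 (0.143) did not. Tlr2 was also lost without Adult burn 3 (0.0917), and Cd14 without Adult burn 2 (0.0948), Adult burn 3 (0.116) or any 1 of the Aged control libraries (0.0655 to 0.0661). Tlr4, Tlr6, Tlr8 and Tlr13 passed whichever of the 12 libraries was left out. With limma-voom 5 members and 3721 of all 15553 genes passed, and Tlr2 (adjusted p = 0.0799) and Cd14 (0.124) were lost. Cd14 passed in 8 of 21 alternative fits.

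Ordered by group mean, Aged burn was the highest group for every gene but Tlr3. For Tlr2, Tlr4, Tlr6, Tlr7, Tlr8 and Tlr13 its libraries were also all above those of the next group. For Tlr1 and Tlr9 the next group was Adult control and for Cd14 it was Adult burn, each overlapping Aged burn. For Tlr9 both Adult control 1 (26.3 CPM) and Adult control 3 (4.02 CPM) lay above Aged burn 3 (3.77 CPM). For Tlr3 the order was Aged control (24.9 ± 1.68 CPM, SD, n = 3), Aged burn (22.3 ± 1.6 CPM), Adult burn (19.0 ± 0.546 CPM) and Adult control (17.8 ± 1.68 CPM); Aged burn overlapped Aged control and lay apart from Adult burn.

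To set levels of different genes side by side, CPM was divided by the exon length of each gene (CPM per kilobase). In Aged control libraries Cd14 (9.94) was highest and apart from the rest, followed by Tlr4 (5.30) and Tlr3 (4.79), which overlapped each other and lay above Tlr7 (1.51), Tlr2 (1.5), Tlr8 (0.914), Tlr13 (0.571), Tlr1 (0.561), Tlr9 (0.420) and Tlr6 (0.263). Among the receptors, the fat of untreated aged mice thus held mainly Tlr4 and Tlr3 transcripts. In Aged burn libraries the order of means was Cd14 (67.7), Tlr13 (22.7), Tlr2 (15.8), Tlr8 (15.1), Tlr4 (12), Tlr7 (11), Tlr1 (9.67), Tlr3 (4.28), Tlr9 (3.20) and Tlr6 (2.48), where each gene overlapped the next. These means lean on Aged burn 2: Cd14 was at 33.0, 154 and 16.6 CPM per kilobase in the 3 libraries. Tlr13 stood at rank 7 of 10 in Aged control and rank 2 in Aged burn libraries. In Adult burn libraries Cd14 (15.1), Tlr4 (4.58) and Tlr3 (3.65) led, Cd14 and Tlr4 each apart from the next.

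Surface and endosomal receptors were then compared as sums per kilobase, given as description without a test. The surface sum was 7.62 ± 1.18 CPM per kilobase in Aged control and 40.0 ± 29.9 in Aged burn libraries (SD, n = 3). The surface sums of the Aged burn libraries were 27.1, 74.2 and 18.7, Aged burn 2 being the highest. The endosomal sum was 8.21 ± 0.834 and 56.3 ± 27.0 in the same groups. Both sums were higher in each Aged burn library than in any Aged control library. In adult mice the surface sum was 14.5 ± 7.43 (control) and 9.61 ± 2.60 (burn), and the endosomal sum 12.1 ± 5.02 and 10.3 ± 2.96, each pair overlapping. Surface receptors made up 54.0% ± 4.52 of the summed receptor level in Adult control, 48.4% ± 4.35 in Adult burn and 48.0% ± 2.34 in Aged control libraries. In Aged burn libraries the share was 31.9%, 47.3% and 39.5%, which overlapped the 46.6% to 50.7% of the Aged control libraries. The shares of Tlr3 and Tlr4 did not overlap. Tlr3 made up between 26.6% and 37.8% of the receptor level in Aged control libraries and between 2.67% and 9.78% in Aged burn libraries. Tlr4 made up between 30.4% and 36.0% and between 10.6% and 19.1% in the same groups.

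**Figure D3:**
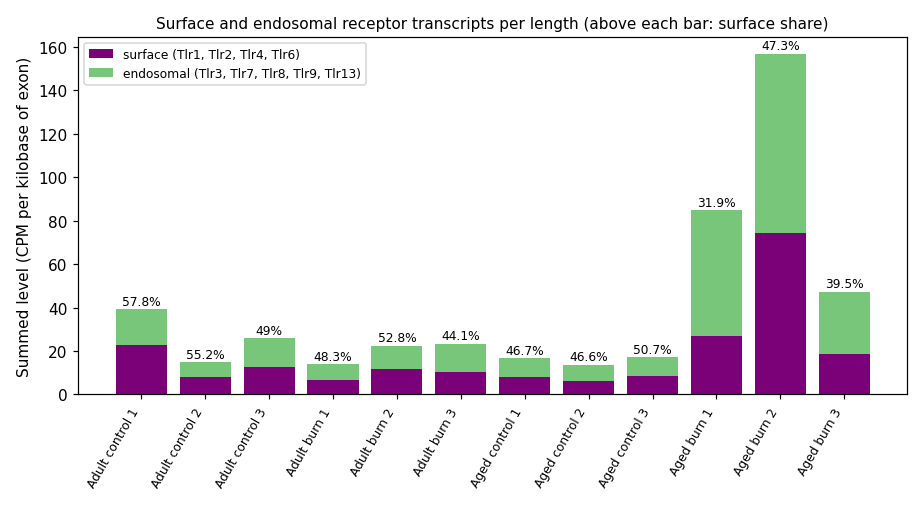
Summed level of surface and endosomal receptors in each library in CPM per kilobase of exon, with the surface share above each bar. The 3 Aged burn libraries have the highest totals of the 12, and their surface shares run from 31.9% to 47.3%.

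Toll-like receptors are found on macrophages and other leukocytes, and the summed markers of several cell types did not overlap between the aged groups. The macrophage markers had the most calls. The summed level of 7 markers was 411, 255 and 357 CPM in Aged control and 2500, 4950 and 1430 CPM in Aged burn libraries. Of the 7, 6 rose in aged mice (edgeR), among them Adgre1 (log2 fold change 4.54 ± 0.63), Cd68 (3.99) and Csf1r (2.61 ± 0.42), while Mertk did not pass (0.42 ± 0.12, adjusted p = 0.0633). In adult mice the sums were 560, 429 and 1100 CPM in control and 391, 866 and 788 CPM in burned libraries, and none of the 7 passed or had an unadjusted p under 0.05 (edgeR). Of the neutrophil markers 1 of 5 tested passed in aged mice; their sum was 20.0 to 28.9 CPM in Aged control and 60.9, 1810 and 51.4 CPM in Aged burn libraries. Ly6g, a defining neutrophil gene, had 96 reads in Aged burn 2 and 0 reads in every other aged library. B cell markers were at 1.94 to 3.14 CPM in Aged control and 5.36 to 16.7 CPM in Aged burn libraries, with 1 of 4 called (Cd79b). Monocyte markers were at 18.3 to 26.2 CPM and 51.3 to 460 CPM (2 of 4 called), conventional dendritic cell markers at 9.14 to 11.2 CPM and 11.7 to 16.6 CPM (0 of 4 by edgeR, with Flt3 at an unadjusted p under 0.05) and fibroblast markers at 1420 to 1840 CPM and 2000 to 5160 CPM (1 of 4 called). T cell, plasmacytoid dendritic cell, skeletal muscle and endothelial sums overlapped between the aged groups. By edgeR 1 of 2 tested plasmacytoid dendritic cell markers and 1 of 4 skeletal muscle markers rose. None of the T cell or endothelial markers passed. Of all genes tested in this comparison 13.7% rose and 3.03% fell, so 1 call in a short list does not set a cell type apart. Without Aged control 3 no gene of the whole table passed by edgeR. Adipocyte markers were at 27500 to 31000 CPM and 6840 to 18000 CPM, with a median log2 fold change of -1; none of the 5 passed by edgeR, and Plin1 had an unadjusted p under 0.05. The part of cell composition in the levels of the receptors was not tested.

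Each gene was therefore also set against the macrophage markers, as the difference between its log2(CPM + 1) and their mean, again without a test. Tlr8 and Tlr13 stood higher against the mean of the markers after burn in aged mice. The markers themselves rose unequally, Adgre1 more than Tlr8 by fitted log2 fold change and Mertk without a call. The position of a gene on this scale therefore depends on which markers are averaged. Tlr8 lay at -3.28 to -2.99 in Aged control and at -2.64 to -2.23 in Aged burn libraries, and Tlr13 at -3.48 to -3.31 and at -2.13 to -1.25. Tlr3, Tlr4, Tlr6, Tlr7 and Tlr9 stood lower without overlap: the group means were -0.46 and -3.55 for Tlr3, -0.24 and -2.05 for Tlr4, and -2.35 and -2.68 for Tlr7. Tlr1 (-3.65 and -3.35), Tlr2 (-2.70 and -2.96) and Cd14 overlapped between the groups. Cd14 was at -1.31 to -0.50 and at -2.37 to -0.88, the highest value of the burned libraries being that of Aged burn 2. The added 1 CPM compresses the response of scarce genes on this scale. In the fitted log2 fold changes, Tlr1 (4.12), Tlr6 (3.24) and Tlr2 (3.40) lay above the median of the 7 markers, 3.11, as did Tlr8 (4.05) and Tlr13 (5.32), while Tlr9 (2.93), Tlr7 (2.87), Cd14 (2.77), Tlr4 (1.18) and Tlr3 (-0.16) lay below it.

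**Figure D4:**
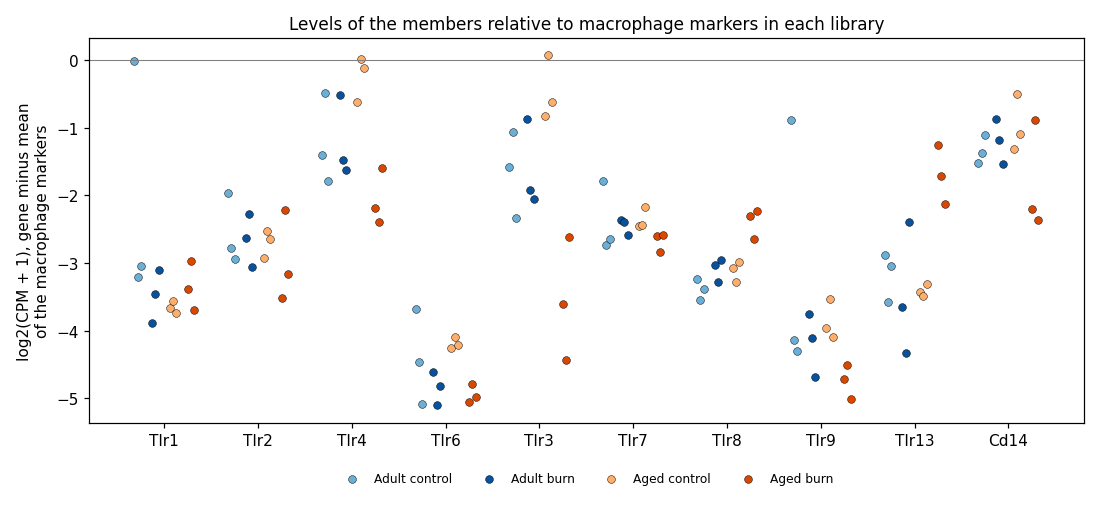
Difference between each gene's log2(CPM + 1) and the mean of 7 macrophage markers in each library, by group. Among the aged libraries, Tlr8 and Tlr13 lie higher after burn without overlap, while Tlr3, Tlr4, Tlr6, Tlr7 and Tlr9 lie lower without overlap. These positions depend on which markers are averaged, and the added 1 CPM compresses the response of scarce genes such as Tlr6 and Tlr9.

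The wider pathway was described through 81 other genes. In aged mice, 28 of the 78 tested rose with burn and none fell by edgeR, beside 13.7% and 3.03% of all genes, with a median log2 fold change of 1.15 (-0.01 over all genes); in adult mice none of 74 passed by edgeR, with a median of -0.22, and 2 (Socs1 and Hspd1) had an unadjusted p under 0.05. These calls come from the same fits as those of the members, where no gene passed for aged mice without Aged control 3. Of the partners and trafficking factors 6 of 12 rose. Cd180, a receptor-like relative of Tlr4, was at 2.88 ± 1.27 CPM in Aged control and 67.4 ± 25.7 CPM in Aged burn libraries (SD, n = 3), a log2 fold change of 4.56 ± 0.49 (edgeR adjusted p = 0.00565). Unc93b1, the chaperone that carries the nucleic acid sensors to endosomes, went from 65.3 ± 7.97 to 335 ± 160 CPM (2.36 ± 0.36, adjusted p = 0.0110). Ctss and Lgmn, proteases that process these receptors, had log2 fold changes of 4.17 and 3.85. Ly96, the partner of Tlr4, did not pass (1.16 ± 0.37, adjusted p = 0.0764), nor did the scavenger receptor Cd36 (-0.42 ± 0.40), the most abundant of the list.

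Of the adaptors 3 of 6 rose, led by Ticam2, the bridging adaptor of Tlr4, which went from 2.80 ± 0.786 to 25.9 ± 12.5 CPM (log2 fold change 3.21 ± 0.41, edgeR adjusted p = 0.00744). Myd88, the most abundant, had 1.38 ± 0.42 (adjusted p = 0.0671). Of the 16 kinases and ubiquitin ligases 2 passed, a share near that of all genes: Ikbke (2.79 ± 0.49, adjusted p = 0.0163) and Irak4 (1.15), while Irak1, the most abundant, was level at 0.02 ± 0.11. Of the transcription factors 4 of 9 rose, with Irf5 at 3.19 ± 0.42 (adjusted p = 0.00767) and Rela at 0.13 ± 0.11 without a call. The other 3 that rose were Irf8 (2.55), Rel (2.09) and Nfkb2 (1.46).

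Of the inhibitors 3 of 12 rose, with Tnip3 from 0.915 ± 0.212 to 33.2 ± 18.4 CPM (log2 fold change 5.19 ± 0.55, edgeR adjusted p = 0.00565). Of 8 ligands made by tissue itself, 3 rose: the matrix proteins Bgn (1.66 ± 0.33, adjusted p = 0.0229), Vcan (2.75) and Tnc (4.85). Saa3, an acute-phase protein, ranged from 12.5 to 4280 CPM in Aged burn libraries and just missed the threshold (10.42 ± 2.80, adjusted p = 0.0504), as did S100a9 (adjusted p = 0.0517). Of the 15 tested target genes 8 rose, Tlr2 among them; the others include Il10 (3.99 ± 0.63, adjusted p = 0.0117), Tnf (3.77) and Ccl3 (5.57). Il1b (9.80, adjusted p = 0.0578) did not pass. Of the 3 receptors that are not members, Tlr5 had a log2 fold change of 0.19 ± 0.42, and none of the 2 tested passed.

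Genes whose levels followed a member most closely over the 12 libraries were found by the mean absolute difference in log2(CPM + 1), each gene centred on its own mean, among 12907 genes with a mean of at least 1 CPM. The nearest genes to Tlr7 were Csf1r (0.135) and Evi2a (0.135), and the nearest to Tlr8 was Cd300a (0.114). Tlr9 was nearest to Sh3bp1 (0.107), Tlr1 to Ptpn6 (0.214), Tlr2 to Clec4a1 (0.211), Tlr6 to Efhd2 (0.162) and Tlr4 to Gna12 (0.129). Tlr13 had no gene as near, its nearest being C3ar1 (0.276), beside its own mean deviation of 1.67 over the libraries. Tlr3, with a mean deviation of only 0.171, was nearest to Alg11 (0.0765). Among the members themselves, Tlr2 and Tlr6 were each nearest to Tlr7 (0.282 for both), Tlr13 to Tlr8 (0.494), Tlr1 to Tlr9 (0.502) and Cd14 to Tlr2 (0.331). The points share libraries, depth and the libraries that stood apart, so these distances carry no p.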

How the data were processed

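Polyadenylated RNA of adipose tissue was sequenced in 12 libraries, 3 per group. Per the labels' protocols, RNA was extracted with Trizol and a directional kit was used for the libraries. FastQC, MultiQC, cutadapt, HISAT2, featureCounts and mm10 are named, per the submitters' processing notes; the sources used here give no versions, annotation or strand setting. The authors deposited raw gene counts, 1 table per age, with the same 27179 Entrez identifiers, of which 25275 matched a symbol. Groups were taken from the labels.

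Counts were tested over all genes in R 4.3.3 with edgeR 4.0.16 (filterByExpr, TMM, quasi-likelihood F test, Benjamini-Hochberg threshold 0.05). Burn was tested on the 6 libraries of an age, and the other comparisons on all 12. SE was computed as the size of the log2 fold change over the root of F. CPM was scaled by TMM, and exon lengths came from GENCODE vM21. Alternatives were other scalings and filters, DESeq2 1.42.0, limma-voom (limma 3.58.1), a replicate block, and libraries left out. The steps were tested on simulated data. Libraries of a group differed beyond sampling noise in every pair (chi-square per degree of freedom at least 24.8). All 10 members were named, with, per pathway list, the called gene of smallest adjusted p and the most abundant gene, others filling out a count. For each member the 3 nearest genes were found, and 1 or 2 are named except for Cd14, whose nearest gene is not reported here. Members and lists were chosen with earlier results of these data known.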

Additional observations from a re-analysis of the deposited data

Results flagged for a closer look

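The burn response differed between aged and adult mice for 7 genes by the test of the difference itself (edgeR, all 12 libraries), each with the larger value in aged mice. On the log2 scale the difference, aged minus adult, was 6.13 for Tlr1, 3.42 for Tlr2, 3.93 for Tlr6, 2.94 for Tlr7, 3.69 for Tlr8, 5.05 for Tlr9 and 5.34 for Tlr13. Of all genes, 11.9% passed this test. Without Adult control 1 it was 4.57 for Tlr1, and Tlr9 (3.08, adjusted p = 0.0617), Tlr2 (adjusted p = 0.0788) and Tlr6 (0.0519) did not pass. Age cannot be told apart from burn size and from the table of counts.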

How the results depend on the processing

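For burn in aged mice, 9 members kept a positive fold change in all 15 alternatives, and Tlr8 and Tlr13 passed in 14 of them. Of 8 members called, the count was 0 to 9 with 1 library left out, while 0 to 5743 genes of the whole table passed. It was 2 with the replicate number as a block (917 of all 15132 genes) and 6 with limma-voom (1994 of 15132). For the difference between the burn responses, 7 became 2 with limma-voom, where 833 of all 15553 genes passed. The count was 0 with the replicate block within age and 0 without Adult control 1 and Adult burn 1. With 1 library left out it was 0 to 9. No gene of the whole table passed in the fits where it was 0. For aged against adult controls, 0 became 3 with DESeq2, where 2184 of all 15553 genes passed. With 1 library left out it was 0 to 3, the 3 being without Adult control 2, where 2011 of all 15951 genes passed. For aged against adult burned mice, 7 became 4 to 9 with 1 library left out and 5 with limma-voom, where 3721 of all 15553 genes passed. The count was also 5 with the replicate block over both ages. That alternative was chosen after seeing the data because a block within age could not be fitted there. For burn in adult mice the count was 0 in all 16 alternatives. Deviations of same-numbered libraries had correlations of -0.002 to 0.24 in adult and -0.224 to -0.071 in aged mice. For libraries of different numbers these were -0.206 to 0.175 and -0.298 to 0.291. The numbers were not taken as pairs, though with 3 libraries per group this check cannot exclude pairing.

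Changes of sign were seen for values that passed no test. Scaling by library totals moved the median of all genes from -0.04 to -0.24 in adult burn and from 0.05 to 0.37 in the difference between the burn responses. Under it, the log2 fold change in adult burn was -0.15 for Tlr4, -0.10 for Tlr3 and -0.12 for Cd14, and the difference was 0.05 for Tlr3. Without Adult control 1 and Adult burn 1, adult burn gave 0.47 for Tlr2, -0.14 for Tlr4, 0.11 for Tlr6, 0.37 for Tlr7, 0.04 for Tlr9, 0.34 for Tlr13 and -0.02 for Cd14. With 1 library left out, adult burn ranged from -0.50 to 0.28 for Tlr2, -0.17 to 0.14 for Tlr4, -0.42 to 0.19 for Tlr7, -1.43 to 0.60 for Tlr13 and -0.24 to 0.72 for Cd14, and aged against adult controls from -0.83 to 0.12 for Cd14. The cause was not tested. Depth limits Tlr6 most, at 13 reads in Adult burn 1.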
